A study of Mus musculus with 22 samples.

Results

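Retinoic acid, the active form of vitamin A, is made and removed inside cells. Retinol dehydrogenases (Rdh genes) oxidise retinol to retinaldehyde, retinaldehyde dehydrogenases (Aldh1a genes) oxidise that to retinoic acid, and the cytochrome P450 enzyme Cyp26b1 hydroxylates retinoic acid and so inactivates it. Retinoic acid acts through nuclear receptors, in which a retinoic acid receptor (Rara, Rarb, Rarg) pairs with a retinoid X receptor (Rxra, Rxrb, Rxrg). The kidney takes part in vitamin A handling because proximal tubule cells reclaim filtered retinol and its carrier through the endocytic receptor megalin (Lrp2).

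The data were read counts in ac4C peaks. N4-acetylcytidine (ac4C) is a modified base of RNA, and a peak is a stretch of transcript in which RNA pulled down with an ac4C antibody (IP) gathered reads. Kidneys came from 6 db/db mice, homozygous for a leptin receptor mutation that brings on obesity and diabetes, and from 5 db/m mice, which carry the mutation on 1 chromosome and serve as nondiabetic controls. Every animal contributed a pull-down library (IP) and a library of its RNA without pull-down (RNA-seq), 22 libraries in all. The mice were male and were obtained at 8 weeks of age, and their age at collection is not given in the sources used here. The db mutation is carried in every cell of the body, and whole kidney was used, so that fewer cells of a type and less RNA per cell cannot be told apart in any value below. Nothing in the labels says how the animals shared litters or cages.

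From 9857 peaks in 4910 genes, Cyp26b1 and the genes of retinol dehydrogenase, retinaldehyde dehydrogenase, retinoid carrier, receptor and retinol uptake families were taken by name. This gave 12 peaks in 9 genes, of which 11 peaks in 8 genes are reported: Cyp26b1, Aldh1a1, Rdh16, Rdh7, Rara, Rarg, Rxra and Rxrb. Cyp26b1 was chosen by its own difference between db/db and db/m IP reads, so its genotype differences are given as values and carry no test. The other 10 peaks in 7 genes were taken by gene name from the authors' db/db and db/m peak lists. A peak in a single list, such as that of Aldh1a1 (db/db) or the short Rxrb peak (db/m), entered through that genotype's list. Its tests are therefore not free of that choice. A further 20 genes of these families, among them Aldh1a2, Aldh1a3, Rdh10, Rbp4, Crabp1, Crabp2 and Stra6, had no peak and were not analysed here.

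IP libraries held 7577171 to 9862426 reads in peaks in db/db mice and 9125099 to 10293757 in db/m mice. RNA-seq libraries held 3160992 to 3352535 and 3151035 to 3265239. Levels below are read counts as a share of each library's reads in peaks (CPM), scaled by edgeR's trimmed mean of M values. Summed over the 22 libraries, the Cyp26b1 peak had 1898 reads, the Aldh1a1 peak 11543 and the longer Rdh16 peak 12437, against a median of 3198 over all peaks. The peaks of Rara, Rarg and Rdh7 had 53, 16 and 95 reads.

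The Cyp26b1 peak (ENSMUSG00000063415) covered 180 bases at chr6:84572789-84572968 on the minus strand (GRCm38, counted from 1). It lay 20940 bases past the start of the gene and 1375 bases before its end as RefSeq places them, and no other RefSeq gene overlapped it. The Aldh1a1 peak (ENSMUSG00000053279) covered 90 bases at chr19:20634423-20634512 on the plus strand. A pair of overlapping Rdh16 peaks (ENSMUSG00000069456) began at the same base, one of 211 bases at chr10:127801274-127801484 and one of 151 bases at chr10:127801274-127801424, both on a transcript annotated as subject to nonsense-mediated decay, 184 bases from the gene's start. By the authors' own values, with no error given, fold enrichment of IP over RNA-seq was 5.41 in the Cyp26b1 peak, 1.57 in the Aldh1a1 peak and 3.68 and 2.99 in the Rdh16 peaks. Among the 11 peaks, 5 stood in the db/db peak list and 6 in the db/m list. Cyp26b1, Aldh1a1 and Rarg, the last with 16 reads over all libraries, stood in the db/db list alone. Rara, Rdh7, Rxra and a 120-base Rxrb peak stood in the db/m list alone. Whether each peak is exonic or in an untranslated region was not analysed here.

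The bases before a RefSeq start of Aldh1a1 and before the outer bound of the RefSeq genes Cyp26b1 and Rdh16 are shown because the levels of these genes are given animal by animal below. RefSeq gives Aldh1a1 more than 1 start, and the stretch printed is before the one nearer to the peak, at position 20601968, which lies inside the gene's outer bounds (from 20492583). Which start the counted transcripts used was not analysed here. The sequences are RefSeq's (GRCm38.p6) and are written in the direction of the gene. Capitals mark the letters AGGTCA or AGTTCA, core letters of the retinoic acid response element, on either strand, and TATAAA, the TATA box. The Cyp26b1 stretch is chr6:84593909-84594060 (minus strand), the Aldh1a1 stretch is chr19:20601718-20601967 (plus strand) and the Rdh16 stretch is chr10:127800903-127801089 (plus strand).
Cyp26b1: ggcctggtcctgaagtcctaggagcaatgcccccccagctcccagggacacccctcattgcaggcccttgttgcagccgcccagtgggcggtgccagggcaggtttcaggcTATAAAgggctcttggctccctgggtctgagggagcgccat
Aldh1a1: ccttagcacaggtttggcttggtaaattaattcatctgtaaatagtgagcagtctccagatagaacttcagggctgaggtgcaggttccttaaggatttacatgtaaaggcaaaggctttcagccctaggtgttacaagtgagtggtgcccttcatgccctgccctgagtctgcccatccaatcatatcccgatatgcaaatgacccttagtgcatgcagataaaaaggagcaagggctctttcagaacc
Rdh16: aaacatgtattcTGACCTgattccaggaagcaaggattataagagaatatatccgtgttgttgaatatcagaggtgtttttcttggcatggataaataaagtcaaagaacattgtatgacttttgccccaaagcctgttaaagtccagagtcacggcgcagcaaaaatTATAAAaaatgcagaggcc
The Cyp26b1 stretch held TATAAA from 41 to 36 bases before the gene's outer start, and the Rdh16 stretch held it from 19 to 14 bases before, with 1 AGGTCA on the opposite strand (read as TGACCT) 175 to 170 bases before. The RefSeq start sites used in the promoter counts lie further inside both genes, at 84593810 for Cyp26b1 and 127801153 for Rdh16, and the printed stretches stop short of them. Counted from these sites, TATAAA lay 139 to 134 bases before the start of Cyp26b1 and 82 to 77 before that of Rdh16, whose AGGTCA lay 238 to 233 before. The Aldh1a1 stretch held none of these letters. Over the 16 RefSeq promoters of these 8 genes, taken as the 250 bases before a start site, 5 held AGGTCA or AGTTCA, and none held a direct repeat of them spaced by 1, 2 or 5 bases. Among 32851 mouse promoters of the same length, 24.2% held AGGTCA or AGTTCA on either strand, 14.0% AGGTCA, 11.8% AGTTCA, 12.4% TATAAA and 0.137% such a direct repeat. These are matches of letters in a window and say nothing of whether a receptor binds there.

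Cyp26b1 was high in db/db kidney and low in db/m kidney in both kinds of library. IP reads in the peak were 117 to 331 in the db/db animals, against 38, 5, 1, 95 and 13 in db/m animals 1 to 5. On the CPM scale, the IP level was lowest at 12.0, with a median of 28.7 and a highest of 35.8 in db/db mice, and was 3.87, 0.530, 0.110, 10.3 and 1.45 in db/m animals 1 to 5. The lowest db/db animal, number 6, lay above the highest db/m animal, number 4, so the genotypes did not overlap. IP means were 26.6 ± 8.89 CPM (SD, n = 6) for db/db and 3.26 ± 4.22 CPM (SD, n = 5) for db/m, a fitted log2 fold change of 3.02 ± 0.64 (SE), or 8.14-fold.

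In RNA-seq, Cyp26b1 reached 10.03 CPM at the lowest, 14.3 at the median and 25.6 at the highest db/db animal. Its RNA-seq level was 1.28, 0.945, 0.327, 4.79 and 0.634 CPM in db/m animals 1 to 5. Again no db/m animal reached the lowest db/db animal, and db/m animal 4 was the highest control in both kinds of library. Means were 16.0 ± 5.44 CPM (SD, n = 6) and 1.60 ± 1.82 CPM (SD, n = 5), a log2 fold change of 3.29 ± 0.42 (SE), or 9.77-fold. Without db/m animal 4 the fitted log2 fold change was 4.14 in IP and 4.25 in RNA-seq. IP relative to RNA-seq, fitted with each animal's own pair of libraries, differed by -0.21 ± 0.43 (SE) on the log2 scale between the genotypes.

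**Figure D1:**
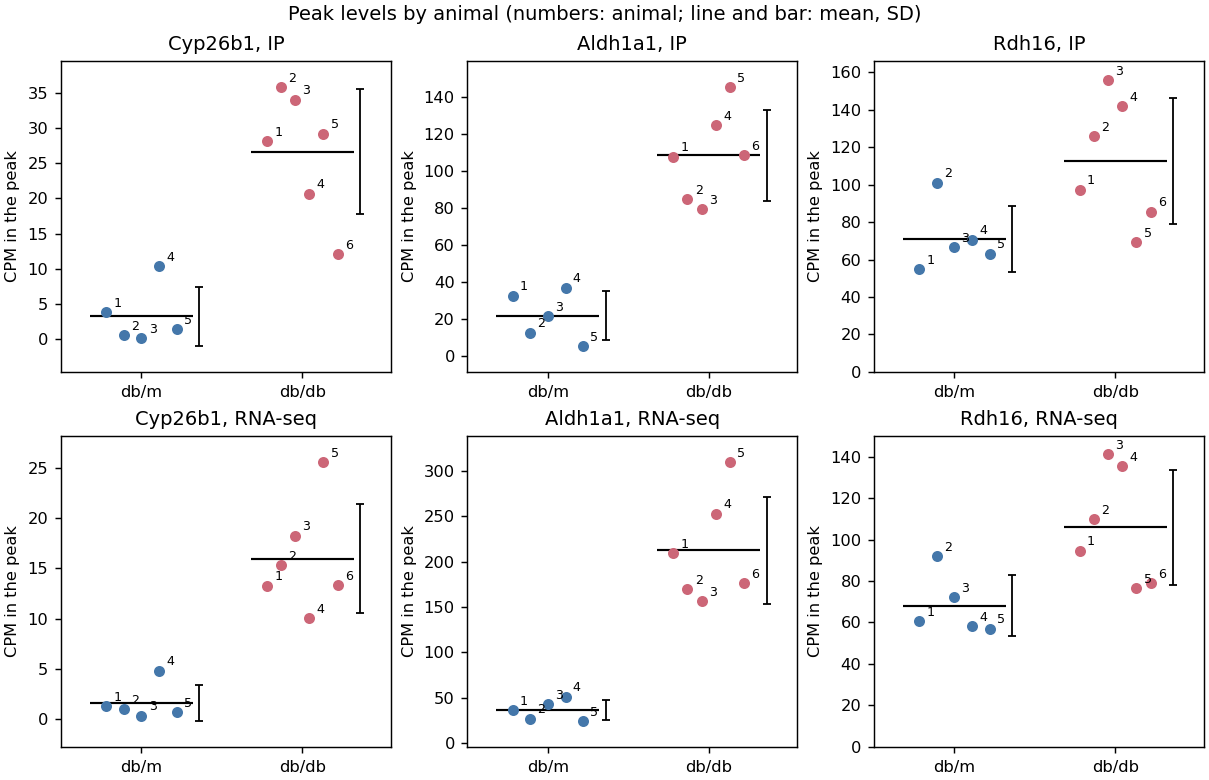
CPM in the leading peak (y axis; the one with most reads) of Cyp26b1, Aldh1a1 and Rdh16 in IP (top row) and RNA-seq (bottom row) libraries of db/m (blue, 5 animals) and db/db (red, 6 animals). Points are animals with their number, the line is the mean and the bar is 1 SD. Cyp26b1 and Aldh1a1 of db/db animals lie above every db/m animal, while for Rdh16 the db/m animals 2 and 4 in IP, and 2 in RNA-seq, lie among them.

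Aldh1a1, which makes retinoic acid, had the largest called difference among the 10 peaks taken by name. Its peak stood in the db/db peak list alone. IP levels were 79.4, 108.3 and 145.6 CPM at the lowest, median and highest db/db animal, against 32.5, 12.4, 21.4, 36.9 and 5.23 CPM in db/m animals 1 to 5. RNA-seq levels were 156, 193 and 310 CPM at the lowest, median and highest db/db animal, against 35.9, 26.8, 42.5, 51.1 and 24.1 CPM in db/m animals 1 to 5. No db/m animal reached the lowest db/db animal in either library. IP means were 108.5 ± 24.7 CPM (SD, n = 6) against 21.7 ± 13.3 CPM (SD, n = 5), a log2 fold change of 2.32 ± 0.36 (SE; edgeR's quasi-likelihood test, adjusted p = 0.000395). In RNA-seq it was 212 ± 59.1 against 36.1 ± 11.1 CPM, a log2 fold change of 2.56 ± 0.22 (5.88-fold; edgeR, adjusted p = 3.39e-07).

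By an exact permutation test over the animals, two-sided, both Aldh1a1 differences gave 0.00216, the smallest value that 462 splits of 11 animals can give. IP relative to RNA-seq did not differ past the threshold for Aldh1a1, at -0.09 ± 0.15 (SE) on the log2 scale (edgeR, adjusted p = 0.933). Reads of Aldh1a1 and of Aldh1a7, a close copy next to it on chromosome 19 that had no peak, can be split between the genes in ways not known from the table.

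Rdh16, a retinol and steroid dehydrogenase, rose in RNA-seq. RNA-seq levels in its 211-base peak were 76.5, 102.1 and 141 CPM at the lowest, median and highest db/db animal, and 60.7, 92.0, 72.3, 58.1 and 57.0 CPM in db/m animals 1 to 5. Here the genotypes overlapped, with db/m animal 2 above the 2 lowest db/db animals, numbers 5 and 6. Means were 106 ± 27.7 CPM (SD, n = 6) and 68.0 ± 14.7 CPM (SD, n = 5), a log2 fold change of 0.64 ± 0.18 (SE; edgeR, adjusted p = 0.0263). In IP the peak was at 69.3, 111.6 and 155.8 CPM in db/db and at 54.7, 100.9, 66.7, 70.6 and 63.0 CPM in db/m animals 1 to 5. The IP means of 112.6 ± 33.9 and 71.2 ± 17.6 CPM gave a log2 fold change of 0.66 ± 0.22, which missed the threshold (edgeR, adjusted p = 0.0811). That RNA-seq call did not survive leaving out any 1 of these animals: numbers 3 and 4 of db/db, and numbers 1, 4 and 5 of db/m, with adjusted p between 0.00467 and 0.0849 over the 11 animals left out in turn (edgeR). The related genes Rdh1, Rdh9, Rdh19, Rdh16f2 and Rdh7 lie near Rdh16 on chromosome 10, and how reads were split among them is not known.

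No peak of Rxra or Rxrb, the receptor partners, was called in IP or RNA-seq. The Rxra peak was at 9.08 ± 5.08 CPM in db/db (n = 6) and 10.03 ± 1.38 CPM in db/m IP (n = 5), with RNA-seq means of 6.95 ± 1.45 and 7.04 ± 0.772 CPM. Its log2 fold change was -0.14 ± 0.35 in IP (edgeR, adjusted p = 0.871) and -0.02 ± 0.21 in RNA-seq (adjusted p = 0.953). The 2277-base Rxrb peak, at chr17:34034074-34036350, was at 33.7 ± 5.76 and 42.2 ± 6.09 CPM in IP, a log2 fold change of -0.33 ± 0.18 (edgeR, adjusted p = 0.330), and at 20.1 ± 3.58 and 20.3 ± 1.75 CPM in RNA-seq, -0.01 ± 0.16 (adjusted p = 0.956). Neither peak passed the threshold, which does not show that the levels were equal.

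A short Rxrb peak of 120 bases, in the db/m peak list alone, lay 178 bases from the gene's start. Of the 10 peaks taken by name, only this Rxrb peak had an unadjusted p under 0.05 in IP relative to RNA-seq. Over all 9857 peaks, 666 lay under that value in the same fit. Its IP level was 3.28 ± 1.53 CPM in db/db and 6.16 ± 2.75 CPM in db/m, its RNA-seq level 1.72 ± 0.781 and 1.08 ± 0.654 CPM. IP relative to RNA-seq was -1.61 ± 0.62 (SE) on the log2 scale (edgeR's quasi-likelihood test, unadjusted 0.00955, adjusted p = 0.551).

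For the 3 peaks with few reads, values were near the floor. Rara was at 0 in 3 of 6 db/db IP libraries and Rarg at 0 in 5 of 6 db/db RNA-seq libraries; a count of 0 allows up to 3 reads, or 0.305 to 0.362 CPM in IP and 0.857 to 0.981 CPM in RNA-seq. Fitted log2 fold changes of these genes ran from -1.13 to 0.91 in IP and from -0.90 to 1.04 in RNA-seq, and none passed the threshold. Rdh7, beside Rdh16, had 49 of its 95 reads in 1 db/m IP library.

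**Figure D2:**
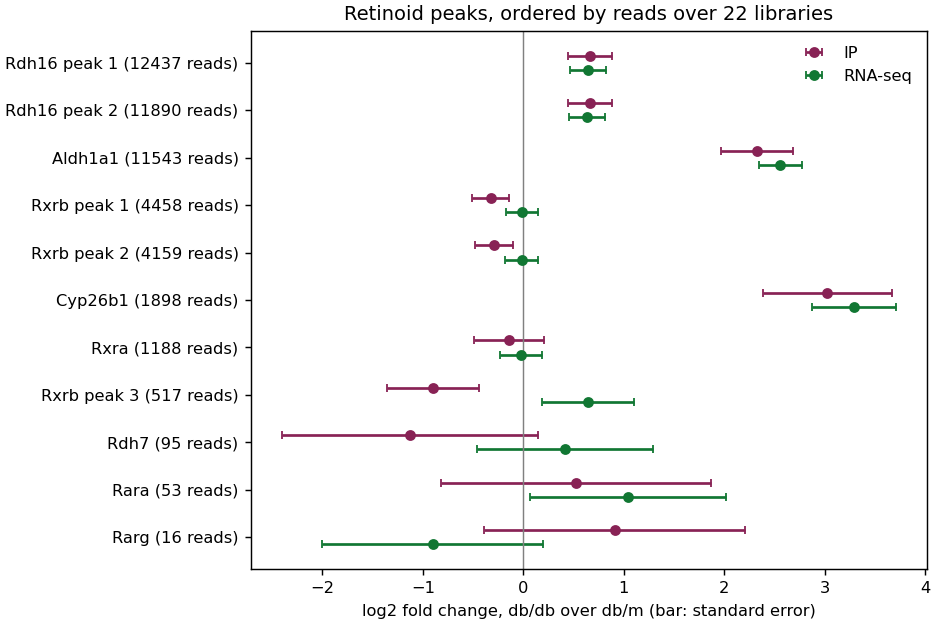
Fitted log2 fold change of db/db over db/m (x axis, bar is 1 SE) in IP and RNA-seq for the 11 retinoid peaks, ordered by reads over 22 libraries (in brackets). Cyp26b1, shown as a value with no test, and Aldh1a1 lie far right of 0 in both libraries, and the peaks with under 100 reads have the widest bars.

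Of the 10 peaks other than Cyp26b1, 1 rose in IP and none fell at an adjusted p under 0.05, against 6.45% of all 9857 peaks called in either direction and 3.07% called higher. With an absolute log2 fold change over 1 as well, 1 of 10 passed (3.32% of all peaks), and 1 of 10 had genotypes that did not overlap (5.77%). In RNA-seq 3 rose and none fell, in 2 genes, Aldh1a1 and Rdh16, against 11.3% of all peaks called and 5.34% called higher. With the fold, 1 of 10 passed (3.95%), and 1 of 10 did not overlap (7.89%). For IP relative to RNA-seq none of 10 was called by edgeR, with or without the animal block, against 0.0304% of all peaks called. At an unadjusted p under 0.05 (edgeR) stood 1 of the 10, and 666 of all 9857 peaks. The median log2 fold change of the 10 was 0.19 in IP (0.00 over all peaks), 0.52 in RNA-seq (-0.01) and -0.24 for the relative difference (0.02). With 2 of the 3 calls in RNA-seq on overlapping Rdh16 peaks, the counts are of peaks that are not independent.

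Per length, RNA-seq levels of the leading peaks ordered differently in the genotypes. In db/db kidney the order was Aldh1a1 at 2360 CPM per kb, above 98.9% of all peaks, Rdh16 at 502, Cyp26b1 at 88.7, Rxra at 38.4 and Rxrb at 8.81 CPM per kb, and the ranges over animals of each of the first 4 did not reach the gene below. In db/m kidney Aldh1a1 was at 401 and Rdh16 at 322 CPM per kb, with overlapping ranges, then Rxra at 38.9, Rxrb at 8.90 and Cyp26b1 at 8.86 CPM per kb, the last pair overlapping as well. The place of Rxrb depends on the peak used: these values divide by the whole 2277-base span, whose exon content was not analysed here, and the 120-base Rxrb peak was at 14.3 CPM per kb in db/db and 9.03 CPM per kb in db/m. The Aldh1a1 peak is 90 bases long, so its level per kb rests on division by a short span. Order and ranks here thus depend on peak length as well as on reads. Cyp26b1 stood above 68.4% of all peaks in db/db and 36.3% in db/m. The remaining genes, Rara, Rdh7 and Rarg, had means under 4 CPM per kb in both genotypes, and their ranges overlapped.

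The IP to RNA-seq CPM ratio of Cyp26b1 was 1.67 in db/db, above 75.5% of 7091 peaks with at least 20 reads in each kind of library summed over that genotype, and 2.04 in db/m, above 83.0% of 7031. Single animals ran from 0.902 to 2.34 in db/db and from 0.336 to 3.01 in db/m, on both sides of the all-peak median, and the db/m ratio rested on 25 RNA-seq reads, 15 of them in animal 4. Aldh1a1 was at 0.511 in db/db, above only 4.47% of those peaks, and at 0.601 in db/m (11.6%). The median over these peaks was 1.11 in db/db and 1.08 in db/m. Aldh1a1 thus took a smaller share of the reads in peaks in IP than in RNA-seq in both genotypes. Both libraries are scaled to their reads in peaks. A ratio under 1 therefore places Aldh1a1 against other peaks and does not show that its IP lacked enrichment. The authors' fold enrichment of the same peak lay above 1. How that enrichment was computed is not given in the sources used here. These ratios describe 1 peak of a transcript, not the modified share of its molecules.

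**Figure D3:**
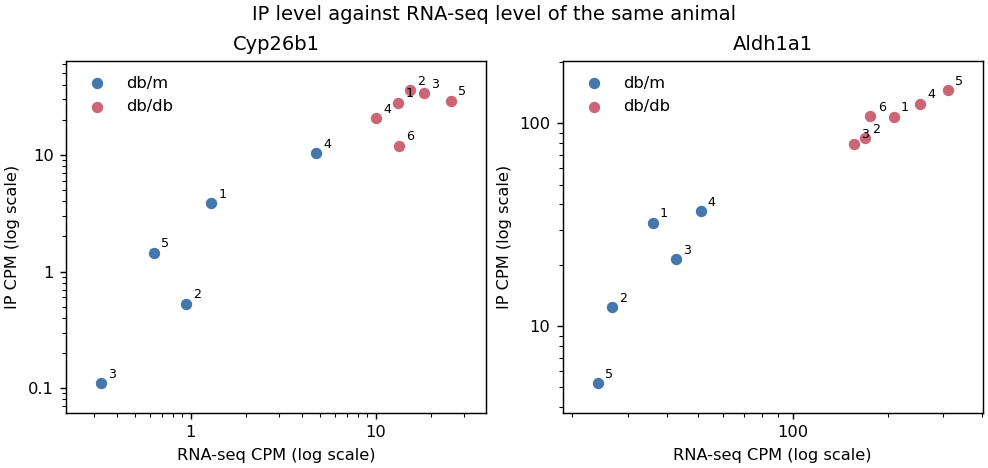
IP CPM (y axis, log scale) against RNA-seq CPM (x axis, log scale) of the same animal for the Cyp26b1 (left) and Aldh1a1 (right) peaks, blue db/m and red db/db, numbers are animals. The 6 db/db animals lie to the upper right of the 5 db/m animals in both panels.

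The 5 genes whose leading peak followed Cyp26b1 most closely, among 2947 genes with enough reads, were Gm20425, whose peak lies at the RefSeq gene of transferrin (Trf), Uroc1, an enzyme of histidine breakdown, Dtx4, Eci1, an enzyme of fatty acid oxidation, and Aldh1a1. Their mean Pearson r, over 11 IP and 11 RNA-seq libraries in log2(CPM + 1), was 0.941, 0.931, 0.929, 0.900 and 0.898. Rdh16 ranked 383 with 0.557. All points share the genotype difference, so the values describe it and carry no test. Within the 6 db/db animals, r with Cyp26b1 in IP was -0.13 for Gm20425, 0.85 for Uroc1, 0.32 for Dtx4, -0.04 for Eci1 and -0.36 for Aldh1a1. In RNA-seq of the same 6 animals r ran from 0.21 to 0.45 over the 5 genes.

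Of a list of 64 other retinoid genes (uptake and storage, oxidation, clearance, partner receptors and targets), 20 had a peak, 50 peaks in all, some listed again at the same coordinates. None rose. In IP 4 of the 50 fell, in Adh1, Lrp2 and Lpl, against 3.38% of all peaks called lower and 6.45% called in either direction. In RNA-seq 6 of the 50 fell, in those genes and Nr1h3, against 5.93% called lower and 11.3% in either direction. Several of the 50 are peaks of the same gene, with 2 of those that fell in Lrp2 and the 1 Nr1h3 peak listed 2 times, so the counts are not of independent peaks and nothing is read from them about the list. The median log2 fold change over the 50 was -0.01 in IP and 0.13 in RNA-seq. Adh1, an alcohol dehydrogenase that also oxidises retinol, was at 46.1, 49.6 and 102.8 CPM at the lowest, median and highest db/db animal in RNA-seq, and at 209.9, 263.1, 178.6, 187.3 and 220.8 CPM in db/m animals 1 to 5. No animals overlapped, and db/db animal 6 was far above the other 5. Its RNA-seq means of 58.6 ± 22.04 and 212 ± 33.2 CPM gave a log2 fold change of -1.86 ± 0.19 (edgeR, adjusted p = 2.94e-06), and the IP one was -1.70 ± 0.29 (adjusted p = 0.00108).

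Lrp2, megalin, stood at 330 ± 114 CPM in db/db and 614 ± 74.98 CPM in db/m in RNA-seq, a log2 fold change of -0.90 ± 0.19 (edgeR, adjusted p = 0.00330), and at 155.5 ± 51.9 and 293.7 ± 23.1 CPM in IP, -0.92 ± 0.19 (adjusted p = 0.00478). Nr1h3, the liver X receptor alpha that pairs with retinoid X receptors, was at 12.7 ± 3.23 and 20.2 ± 2.39 CPM in RNA-seq (-0.67 ± 0.19; edgeR, adjusted p = 0.0246), with IP short of the threshold at -0.61 ± 0.26 (adjusted p = 0.178). Lpl, lipoprotein lipase, was at 5.21 ± 1.15 and 42.7 ± 27.2 CPM in RNA-seq (log2 fold change -3.03 ± 0.39; edgeR, adjusted p = 2.96e-05). Its IP level was uneven: 3 of 5 db/m libraries held 2700 to 3052 CPM and the other 2 held 15.9 and 13.9 CPM, while the 6 db/db libraries lay between 3.96 and 320 CPM. The Lpl IP call (adjusted p = 0.0404, edgeR) did not survive leaving out any 1 of db/db numbers 1 to 5 or db/m numbers 1 and 4. The Nr1h3 RNA-seq call did not survive leaving out db/db number 4, db/db number 5, or any 1 of db/m numbers 3, 4 and 5. In IP relative to RNA-seq Lpl was at -2.24 ± 0.20 (SE) on the log2 scale, the 1 pathway peak called there, in a fit that gave no weight to the peak's own spread. That difference rested on db/m animals 1, 2 and 4: the IP and RNA-seq levels of db/m animal 3 were 15.9 and 16.7 CPM and those of db/m animal 5 were 13.9 and 12.99 CPM, while db/db animal 6 had 320 CPM in IP and 6.67 CPM in RNA-seq. Of 11 listed retinoic acid target genes 5 had a peak, 13 peaks in all, and none was called in IP or RNA-seq. Over all peaks 6.45% were called in IP and 11.3% in RNA-seq, so nothing is read from this count about the targets. In the leading peaks the RNA-seq log2 fold change was 0.30 ± 0.14 for Dhrs3, a retinaldehyde reductase (edgeR, adjusted p = 0.204), 0.25 ± 0.17 for Ccnd1 (0.384), 0.13 ± 0.18 for Tgm2 (0.681) and -0.01 ± 0.24 for Meis2 (0.985). The Hoxa5 peak held 3 RNA-seq reads in 1 db/m library and 0 in the other 10, and no fold is given.

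**Figure D4:**
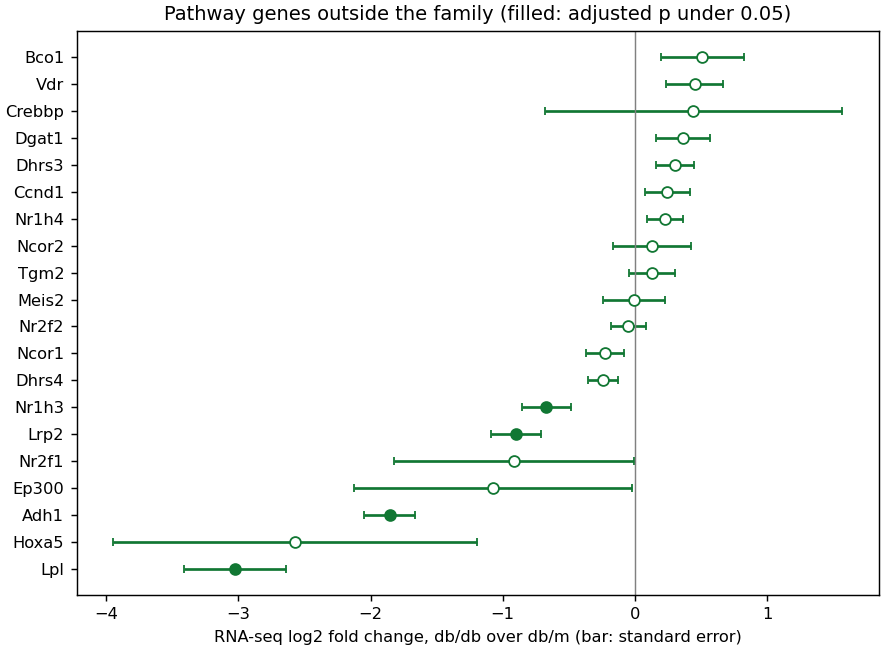
Fitted log2 fold change in RNA-seq, db/db over db/m (x axis, bar is 1 SE), of the leading peak of each of 20 pathway genes. Filled points passed an adjusted p under 0.05: Lpl, Adh1, Lrp2 and Nr1h3, all below 0. The Hoxa5 point rests on 3 reads and measures no fold.

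**Figure D5:**
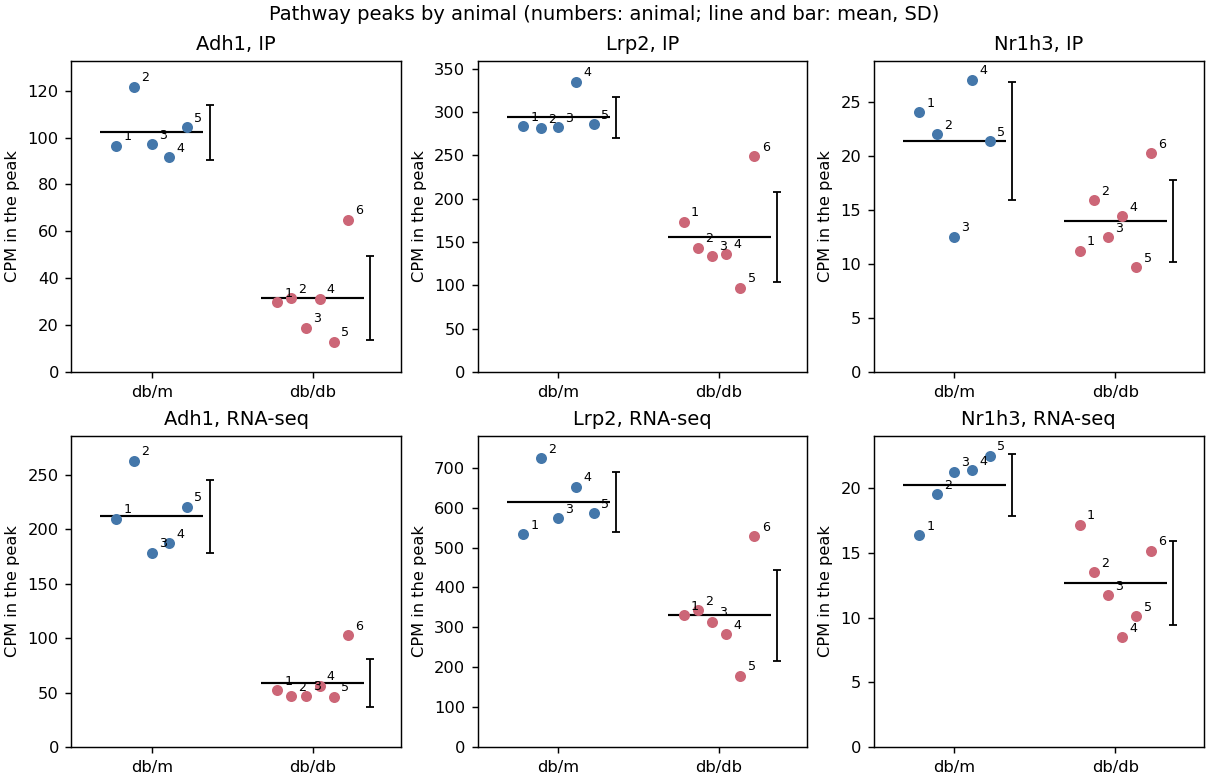
CPM in the leading peaks of Adh1, Lrp2 and Nr1h3 in IP (top) and RNA-seq (bottom) of db/m (blue) and db/db (red) animals, with numbers, mean line and SD bar. Adh1 and Lrp2 of db/db animals lie below every db/m animal, with animal 6 nearest to them.

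Some markers of kidney cell types differed between the genotypes in the same libraries. Of 11 proximal tubule genes 7 had a peak, and 4 fell in each kind of library, Slc34a1, Slc22a6, Acsm2 and Lrp2. Over all peaks 3.38% were called lower in IP and 5.93% in RNA-seq. The summed RNA-seq level of all 7 was 2017, 1879, 1334, 1814, 1356 and 3374 CPM in db/db animals 1 to 6, and 4857, 4341, 4984, 4850 and 4904 CPM in db/m animals 1 to 5, with Acsm2 the most abundant gene. Lrp2 is on both this list and the retinoid one. Some markers of other cells moved the other way in RNA-seq. The podocyte genes Synpo and Cdkn1c (2 of 5) and the endothelial gene Plvap (1 of 4) rose. Aqp2 also rose, 1 of 5 genes of the loop, distal tubule and collecting duct with a peak. Over all peaks 5.34% were called higher in RNA-seq. The part of these cell-type differences in the retinoid values was not tested.

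Lung epithelium markers appeared in some IP libraries. Sftpc, Sftpa1 and Scgb1a1 (3 of 6) rose in IP and none in RNA-seq, against 3.07% and 5.34% of all peaks called higher. Summed IP levels of the lung markers were 47.8, 34.1, 33.1, 11.5, 0.223 and 0.206 CPM in db/db animals 1 to 6 and 0 to 1.48 CPM in db/m animals. In db/db animals 5 and 6 the Aldh1a1 IP level was 145.6 and 108.7 CPM, against a highest db/m level of 36.9 CPM. For Cyp26b1, chosen on these IP reads, it was 29.2 and 12.0 CPM, the latter close to the highest db/m animal at 10.3 CPM. The part of lung RNA in the IP values was not tested. Fat markers (2 of 9 with a peak) and adrenal cortex markers (1 of 8) summed to at most 2.42 and 0.653 CPM in any library. Hepatocyte markers had no peak, and C1qa, the 1 of 10 macrophage and lymphocyte genes with a peak, was not called.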

How the data were processed

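The deposited table held counts of reads per ac4C peak, whole numbers made by the authors, for 11 IP and 11 RNA-seq libraries, with the authors' fold enrichment ratio and p-value (as a false discovery rate) of each peak; its genotype comparison columns (log2 change, p and adjusted p) were not used. Per the labels, RNA was total kidney RNA, and the submitters' processing notes name GRCm38; the study enriched mRNA with oligo(dT), fragmented it, and pulled it down with an ac4C antibody. The aligner, counter and peak caller are not given in the sources used here. The count table was fitted with edgeR 4.0.16 (quasi-likelihood, trimmed mean of M values, all 9857 peaks, no filter) in R 4.3.3, separately for IP and RNA-seq, and with all 22 libraries and an animal block for IP relative to RNA-seq. Peaks were called at an adjusted p under 0.05 (Benjamini-Hochberg over all peaks). Alternatives were DESeq2 1.42.0, library sizes without scaling, a filter on low counts, an added fold threshold, 1 peak per overlapping group, leaving out each animal, and a replicate block. The fit, tested on simulated data with 200 of 9857 peaks changed 4-fold, recovered 173 in IP, 144 in RNA-seq and 147 in the relative fit, with 10, 3 and 9 false calls. Within each fit the simulation gave every peak the same dispersion, and the libraries of an animal shared no effect. It therefore does not show how the fits handle peaks of unequal spread. In the relative fit, the prior was infinite, so that a peak's own spread was given no weight. Each IP library matched the RNA-seq library of its own number best (11 of 11, r 0.272 to 0.823 over 5244 peaks). A count of 0 allows up to 3 reads; this covers counting error only. The members and lists were chosen with earlier results of these data known. Of the genes, 1 that the name rule found is not reported here. Named genes were all Cyp26b1 peaks, the leading peak of each other family gene, pathway genes with a called peak and the 5 genes most like Cyp26b1; the 5 retinoic acid targets with a peak, from the same pathway list, and the called cell type markers were named after their values were seen, outside that rule. P-values of the IP and RNA-seq fits set a genotype difference against the spread between these animals. Those of the relative fit do not use a peak's own spread. Positions count from 1.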

Additional observations from a re-analysis of the deposited data

Results flagged for a closer look

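In 14 of 60 groups of animals 1 value stood far from the rest by Dixon's test at 95%, where chance gives about 3.0; 7 of them were in the 3 peaks with under 100 reads. Cyp26b1 in db/m RNA-seq was highest in animal 4, at 4.79 CPM. Rara was highest at 2.30 CPM in db/db IP (animal 1), 1.10 CPM in db/m IP (animal 3) and 0.940 CPM in db/db RNA-seq (animal 4). Rarg was highest at 0.721 CPM in db/db IP (animal 3) and 0.303 CPM in db/db RNA-seq (animal 6). Rdh7 reached 2.04 CPM in db/db IP (animal 3) and 4.98 CPM in db/m IP (animal 1). The 2 overlapping long Rxrb peaks were highest in db/db RNA-seq in animal 1, at 26.8 and 19.9 CPM. Adh1 was highest in db/db animal 6, at 64.9 CPM in IP and 102.8 CPM in RNA-seq, and Lpl IP there was 320 CPM; Lrp2 IP was highest in db/m animal 4, at 335 CPM. The cause of these values was not tested.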

How the results depend on the processing

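The number of the 10 peaks called in IP, 1 as reported, was 2 with DESeq2, 3 with the replicate block and 3 with animals 1 to 5 without the block, the last chosen after seeing the data; the number called in RNA-seq, 3 as reported, was 1 with the fold. The number of pathway peaks called, 4 in IP and 6 in RNA-seq, was 2 in each with the fold, and 9 in RNA-seq with the replicate block. Leaving out 1 animal gave 1 to 3 retinoid peaks in IP, 1 to 3 in RNA-seq (1 without numbers 3 or 4 of db/db or 1, 4 or 5 of db/m), 0 in the relative fit, 3 to 4 pathway peaks in IP and 4 to 8 in RNA-seq. Direction turned only in peaks that were not called: with the replicate block the IP log2 fold change was -1.82 for Rara and 0.54 for Rdh7; without scaling the RNA-seq value was 0.052 for Rxra and 0.065 and 0.059 for the long Rxrb peaks, which were at 0.020 and 0.019 with the block. Leaving out 1 animal, ranges that crossed 0 were in IP -0.91 to 1.46 for Rara, -0.31 to 2.22 for Rarg, -2.30 to 1.27 for Rdh7 and -0.42 to 0.028 for Rxra, and in RNA-seq -0.076 to 0.99 for Rdh7, -0.10 to 0.070 for Rxra, -0.12 to 0.029 and -0.11 to 0.039 for the long Rxrb peaks. In IP, Rdh16 was called with DESeq2 (0.66, adjusted p = 0.0451), with the replicate block (0.73, adjusted p = 0.0179), and when number 5 or 6 of db/db, or number 2 of db/m, was left out. The Aldh1a1 calls held in each of these settings. Deviations of same-numbered animals of the 2 genotypes correlated above 0 for animals 1 and 2 and below 0 for animals 3, 4 and 5 in both kinds of library (r -0.271 to 0.293 in IP, -0.397 to 0.514 in RNA-seq), so the numbers were not taken to pair them. The cause of the changes was not tested.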
